A study of Mus musculus with 6 samples.

Results

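The genes described here are 9 members of the cellular oxygen sensing machinery: the hypoxia-inducible factor (HIF) subunits Hif1a, Epas1 and Arnt, the prolyl hydroxylases Egln1, Egln2 and Egln3, the asparaginyl hydroxylase Hif1an, the ubiquitin ligase subunit Vhl, and the HIF target gene Ankrd37. They are 9 of the 55487 genes in the count table, and all 9 were among the 15748 genes with enough counts to be tested. Of them, 7 were taken for their role. Egln3 and Ankrd37 were chosen by their measured rise between 0 h and 6 h in these same libraries, so their values are given as a description with no test.

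The study measured polyA RNA in D6AdP cells, a mouse embryonic stem (ES) cell line, by stranded, single-end RNA-seq. Every library came from cells of the same genotype: both Ddx6 alleles carry an auxin-inducible degron with mCherry (DDX6-AID-mCherry/DDX6-AID-mCherry), 1 Dcp1a allele carries EGFP (DCP1a-EGFP/+), and the plant F-box protein OsTIR1 comes from a transgene (OsTIR1-FLAG Tg). DDX6 is an RNA helicase of translational repression and mRNA decapping, and the auxin analog 5-Ph-IAA sends the tagged protein to the proteasome. Cells grew on fibroblast feeders treated with Mitomycin-C, with leukemia inhibiting factor, PD0325901 and CHIR99021, and were collected before the analog (0 h) and after 3 h or 6 h at 500 nM, with 2 libraries for each of the 3 times. No untreated cells kept for 3 or 6 h and no treated cells without the degron were used here. Effects of the analog, of DDX6 loss and of time in culture therefore cannot be told apart. The labels name 1 line and do not say that the libraries are separate cultures, so every p-value measures only the spread between these libraries.

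In cells with enough oxygen, the prolyl hydroxylases, which need oxygen, iron and 2-oxoglutarate, hydroxylate the HIF alpha subunits HIF1A and EPAS1 (HIF2A). VHL binds the hydroxylated subunits and has them ubiquitinated and degraded. FIH, the product of Hif1an, hydroxylates an asparagine of the alpha subunits and blocks their coactivators. When oxygen is short the alpha subunits escape, pair with ARNT and bind a short core motif, ACGTG or GCGTG, near genes of glucose uptake, glycolysis and feedback control. Egln3, Egln1 and Ankrd37 are known HIF targets themselves. Control of the pathway thus lies largely in protein stability, which these mRNA counts do not measure.

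Library totals ran from 16357142 to 21846959 counts, and levels are given as CPM (counts scaled to a common library size) after scaling with TMM factors. The mRNA of Ddx6 was not called changed, with 267 and 250 CPM at 0 h, 269 and 271 after 3 h, and 258 and 247 after 6 h. Depletion takes place at the protein and was not measured here. ES cell markers were present as the label says: none of 20 was at 0, and Pou5f1 ran from 609 to 658 CPM. Their summed level was 8357 and 8622 CPM at 0 h, 8643 and 8605 after 3 h, and 7697 and 7925 after 6 h. At 6 h edgeR called 10 of the 20 lower (50%) and 4 higher (20%), beside 12.3% and 10% of all genes tested. Their median log2 fold change was -0.15, and the part of this shift in the changes below was not tested. Markers of feeder fibroblasts were also abundant. None of 37 was at 0, and their summed level was 33192 and 30270 CPM at 0 h, 29199 and 28674 after 3 h, and 32670 and 29282 after 6 h. RNA of ES cells and feeders was therefore read together. In such bulk RNA, fewer cells of a type and less RNA per cell cannot be told apart.

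The sequences before the RefSeq transcription starts of 5 genes are shown because these are the members whose mRNA level differed at 6 h. Each is the 250 bases before the start, on the strand of the gene, in build GRCm38.p6, and 8 of the 9 members were found in that RefSeq table. Capitals mark matches to the letters ACGTG or GCGTG on either strand (the reverse complements are CACGT and CACGC), and matches may overlap. Egln1 is at chr8:124949255-124949504 (minus strand), Egln2 at chr7:27166803-27167052 (minus), Egln3 at chr12:54203875-54204124 (minus), Hif1an at chr19:44562604-44562853 (plus) and Ankrd37 at chr8:45999851-46000100 (minus).
Egln3: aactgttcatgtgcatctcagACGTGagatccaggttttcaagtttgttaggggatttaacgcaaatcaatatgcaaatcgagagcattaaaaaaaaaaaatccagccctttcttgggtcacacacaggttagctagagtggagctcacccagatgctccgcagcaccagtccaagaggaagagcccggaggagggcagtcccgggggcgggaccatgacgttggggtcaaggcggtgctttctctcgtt
Ankrd37: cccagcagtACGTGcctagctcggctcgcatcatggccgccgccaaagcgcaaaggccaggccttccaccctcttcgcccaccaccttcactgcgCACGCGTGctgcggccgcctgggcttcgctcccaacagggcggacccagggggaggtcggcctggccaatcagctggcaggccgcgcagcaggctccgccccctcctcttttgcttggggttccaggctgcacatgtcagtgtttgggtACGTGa
Egln1: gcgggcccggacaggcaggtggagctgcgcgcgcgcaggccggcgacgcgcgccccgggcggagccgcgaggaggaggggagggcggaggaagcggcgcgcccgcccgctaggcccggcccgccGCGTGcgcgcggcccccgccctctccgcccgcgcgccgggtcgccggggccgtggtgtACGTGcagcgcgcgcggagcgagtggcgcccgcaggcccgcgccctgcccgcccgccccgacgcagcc
Egln2: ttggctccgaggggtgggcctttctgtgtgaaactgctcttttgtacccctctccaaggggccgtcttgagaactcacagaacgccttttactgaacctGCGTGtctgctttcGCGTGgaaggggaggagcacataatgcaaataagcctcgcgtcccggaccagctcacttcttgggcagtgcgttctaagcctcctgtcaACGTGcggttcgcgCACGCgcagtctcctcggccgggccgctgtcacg
Hif1an: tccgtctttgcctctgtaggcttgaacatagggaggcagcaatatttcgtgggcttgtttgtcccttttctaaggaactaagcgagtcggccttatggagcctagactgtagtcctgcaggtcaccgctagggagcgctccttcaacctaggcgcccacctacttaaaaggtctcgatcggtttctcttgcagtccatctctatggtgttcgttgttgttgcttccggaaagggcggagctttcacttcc

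Egln3 held 1 match, an ACGTG at 229 to 225 bases before the start. Ankrd37 held 4, of which 2 were ACGTG and 2 GCGTG. Its nearest lay 6 to 2 bases before the start, and the GCGTG pair overlapped in the letters CACGCGTG. The Ankrd37 window lay inside the annotated span of the gene (45996902 to 46005707), so the RefSeq start is not the outermost annotated one. It also lay inside the span of the opposite-strand gene Lrp2bp (45999303 to 46029477). The Hif1a window likewise lay inside the annotated span of Hif1a. Egln1 held 1 match of each kind, at 126 to 122 and 68 to 64 bases before the start. Egln2 held 4 before this start and 1 before a second RefSeq start, and Hif1an held none. Of the members not called at 6 h, Hif1a held 3, Arnt 1 and Vhl 0. In all, 6 of the 8 members found held at least 1 match. Among all 32851 promoters of the table, 38.6% held at least 1, 16.7% at least 2 and 2.58% at least 4. ACGTG alone was in 16.6%. In the nearest 100 bases, 5 of the 8 held a match, against 21.9% of all promoters. A match describes letters and is not a measured binding site, and the windows differed in base composition, with a GC content of 50.8% for Egln3 and 86% for Egln1 against a median of 52.4%.

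**Figure D1:**
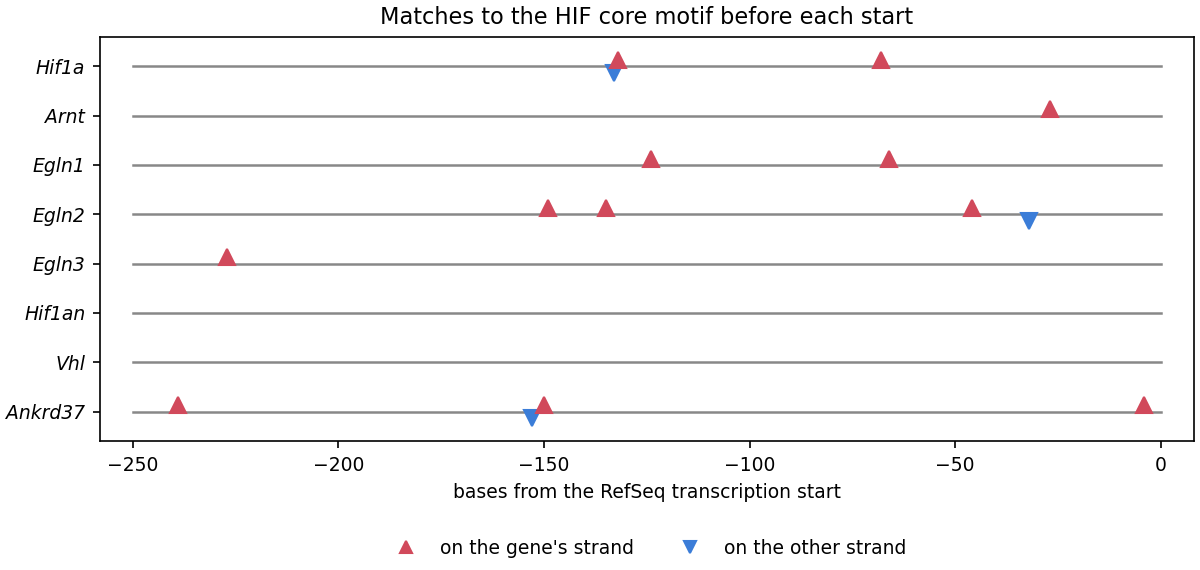
Matches to ACGTG or GCGTG in the 250 bases before the RefSeq start of 8 genes. The x axis gives the distance from the start in bases, triangles pointing up are matches on the strand of the gene and triangles pointing down matches on the other strand. Ankrd37 and Egln2 have 4 each, Egln3 has 1 far from the start, and Vhl and Hif1an have none.

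None of the 3 HIF subunits was called changed at mRNA level, and their log2 fold changes lay between -0.07 and 0.05 against 0 h. Hif1a (ENSMUSG00000021109, chromosome 12, 73901375 to 73947530, GRCm38 as for all gene positions), the oxygen-labile alpha subunit found in most cells, measured 190 and 186 CPM at 0 h, 178 and 187 after 3 h, and 179 and 179 after 6 h. Its 6 h libraries lay just below those of 0 h. Its change at 3 h was -0.04 ± 0.04 (log2, SE; adjusted p = 0.769 by edgeR). At 6 h the log2 fold change was -0.07 ± 0.04, with a 95% interval of -0.15 to 0.01 (adjusted p = 0.229). Exons of Hif1a overlap an antisense gene, Gm15283, over 5.6% of their length, and that gene had 1 to 12 counts per library.

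Epas1 (ENSMUSG00000024140, chromosome 17, 86753700 to 86833410), the second alpha subunit, measured 120 and 125 CPM at 0 h, 124 and 122 after 3 h, and 125 and 129 after 6 h. The 0 h range overlapped both later ones. By edgeR, the log2 fold change of Epas1 was 0.01 ± 0.04 after 3 h (adjusted p = 0.963). After 6 h it was 0.05 ± 0.04, with a 95% interval of -0.04 to 0.13 (adjusted p = 0.424). Arnt (ENSMUSG00000015522, chromosome 3, 95434388 to 95497240), the constitutive beta subunit, measured 108 and 111 CPM at 0 h, 112 and 110 after 3 h, and 104 and 105 after 6 h. Its 6 h libraries were the lowest, but neither 6 h against 0 h (-0.07 ± 0.04, edgeR adjusted p = 0.223) nor 6 h against 3 h (-0.09 ± 0.04, adjusted p = 0.126) passed the test. At 3 h the log2 fold change of Arnt was 0.02 ± 0.04 (adjusted p = 0.917).

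Of the 3 prolyl hydroxylases, Egln3 and Egln1 were higher at 6 h and Egln2 was lower. Egln3 (PHD3; ENSMUSG00000035105, chromosome 12, 54178981 to 54203860), the family member known for its strong induction by HIF, measured 24.6 and 26.1 CPM at 0 h, 35.6 and 34.1 after 3 h, and 68.4 and 81.2 after 6 h. The 3 times did not overlap, and each was above the one before. The fitted log2 fold change was 0.46 ± 0.07 (SE) at 3 h (1.37-fold) and 1.56 ± 0.07 at 6 h (2.95-fold). Between 3 h and 6 h it was 1.10 ± 0.07, so the later interval held the larger step. The first step coincided with a lower level of feeder markers, whose median was -0.15 on the log2 scale at 3 h. All 37 were lower and 0 called. Of all 15748 genes tested, 7809 had a positive change at 3 h and 0.14% were called. With the feeder marker level as a covariate, the log2 fold change of Egln3 was 0.23 at 3 h. At 6 h it was 1.52 against 0 h and 1.29 against 3 h. As a group the feeder markers were lowest at 3 h, so the covariate moved with time. Whether feeders play a part in the 3 h value of Egln3 was not tested. No exon of Egln3 overlaps another annotated gene.

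Egln1 (PHD2; ENSMUSG00000031987, chromosome 8, 124908587 to 124949324), the main oxygen sensor of most cells, measured 51.1 and 49.5 CPM at 0 h, 54.0 and 54.9 after 3 h, and 53.9 and 60.1 after 6 h. All treated libraries lay above both 0 h libraries, while 3 h and 6 h overlapped. At 3 h its log2 fold change, 0.11 ± 0.06, did not pass the test (adjusted p = 0.474), and at 6 h it rose by 0.18 ± 0.06 (adjusted p = 0.0256, both by edgeR). The 6 h call was lost without replicate 2 of 0 h (0.16, adjusted p = 0.116), without replicate 2 of 6 h (0.10, adjusted p = 0.300), with no filter on low counts (0.18, adjusted p = 0.149) and with DESeq2 (0.18, adjusted p = 0.143).

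Egln2 (PHD1; ENSMUSG00000058709, chromosome 7, 27158658 to 27166802), a nuclear prolyl hydroxylase, measured 55.0 and 57.8 CPM at 0 h, 56.2 and 54.8 after 3 h, and 50.2 and 46.5 after 6 h. The 6 h libraries lay below the other 4, which overlapped. After 3 h the log2 fold change was -0.02 ± 0.05 (edgeR adjusted p = 0.917). Egln2 was lower at 6 h, with -0.22 ± 0.05 against 0 h (adjusted p = 0.0062) and -0.20 ± 0.05 against 3 h (adjusted p = 0.0136). The call against 0 h was lost without replicate 2 of 0 h (adjusted p = 0.0541), without replicate 2 of 6 h (adjusted p = 0.0862) and with DESeq2 (adjusted p = 0.0503). The call against 3 h was made in 10 of 15 alternative fits and in 3 of the 6 that left out a library.

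**Figure D2:**
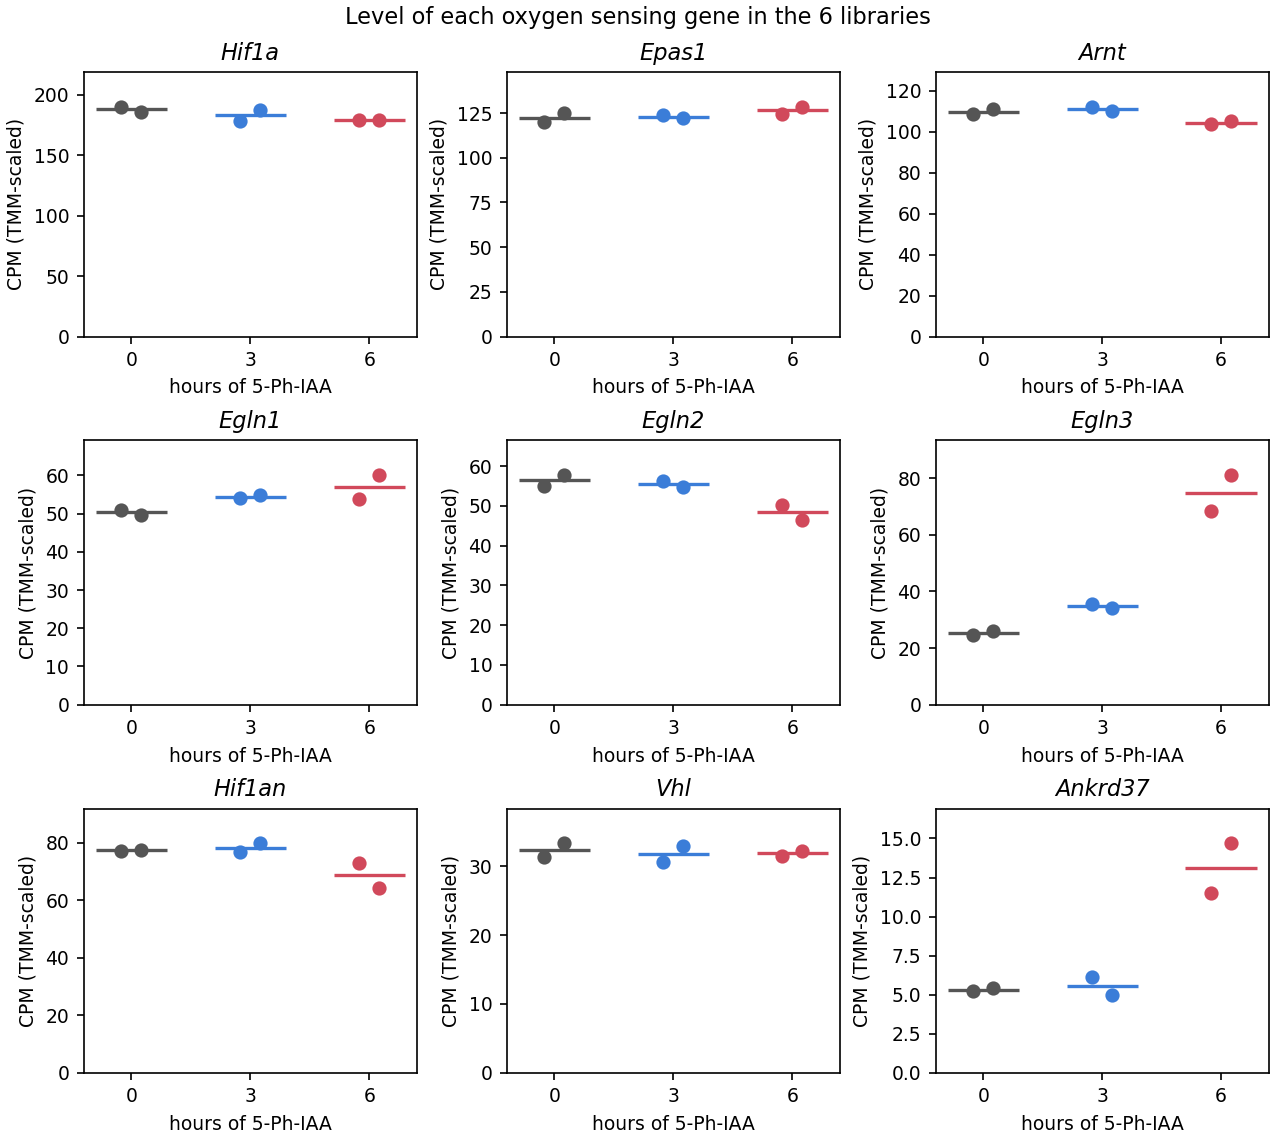
TMM-scaled CPM of the 9 genes (y axis, from 0, one panel a gene) at 0, 3 and 6 h of 5-Ph-IAA (x axis). Each point is a library and each bar the mean of the 2 libraries of a time. Egln3 climbs from about 25.4 to 74.8 CPM and Ankrd37 from 5.33 to 13.1 between 0 and 6 h, while the points of the HIF subunits and Vhl differ little between times.

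Levels of different genes were compared per length, as CPM per kb of annotated exon. The length joins the exons of all annotated transcripts of a gene, so the order between genes depends on it. These are levels in the mixed RNA of ES cells and feeders and cannot be assigned to either. At 0 h Egln2 was the most abundant prolyl hydroxylase mRNA, at 20.2 ± 0.697 CPM per kb (SD, n = 2), ahead of Egln1 at 14.0 ± 0.304 and Egln3 at 9.53 ± 0.419. At 6 h Egln3 was first at 28.1 ± 3.38, and Egln2 (17.3 ± 0.932) and Egln1 (15.9 ± 1.22) overlapped. As a share of the 3 mRNAs together, Egln3 was 21.4% and 22.2% at 0 h, 27.6% and 26.9% after 3 h, and 43.8% and 47.8% after 6 h. The summed level of the family was 43.1 and 44.2 CPM per kb at 0 h, 48.5 and 47.7 after 3 h, and 58.6 and 63.8 after 6 h. Egln1 and Egln2 without Egln3 summed to 33.9 and 34.4 CPM per kb at 0 h, to 35.1 and 34.8 after 3 h, and to 32.9 and 33.3 after 6 h. The higher sum at 6 h therefore lay in Egln3.

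**Figure D3:**
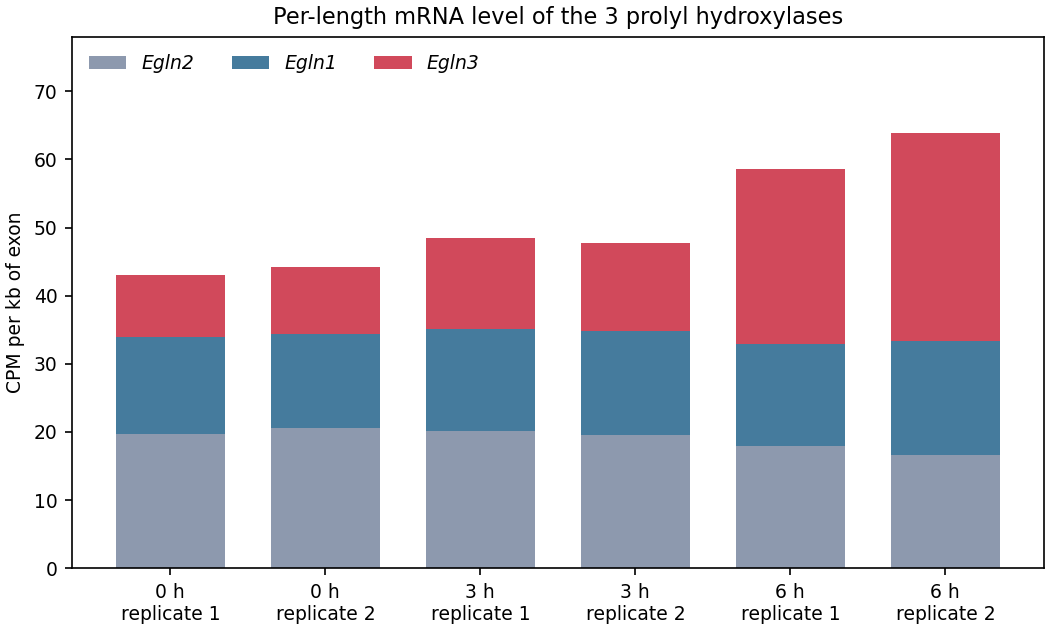
Stacked bars of the per-length mRNA level of the 3 prolyl hydroxylases in each library (y axis, CPM per kb of exon, from 0; x axis, the 6 libraries). The red Egln3 segment grows from 21.4% and 22.2% of the bar at 0 h to 43.8% and 47.8% at 6 h, and the bar itself from 43.1 and 44.2 to 58.6 and 63.8 CPM per kb.

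Among all 9 genes at 0 h, the per-length order was Hif1a (31.9 CPM per kb), Epas1 (21.9), Egln2 (20.2), Egln1 (14.0), Arnt (13.7), Hif1an (11.7), Vhl (10.8), Egln3 (9.53) and Ankrd37 (3.46). Of neighbours in this order, Egln1 and Arnt overlapped between libraries and the others did not. At 3 h Egln3 was the sixth, at 13.1 CPM per kb. At 6 h Hif1a (30.4) and Egln3 (28.1) led and overlapped, followed by Epas1 (22.6), Egln2 and Egln1, then Arnt (13.0), Vhl (10.6) and Hif1an (10.4), of which the last 2 overlapped, and Ankrd37 (8.52). The per-length ratio of Hif1a to Epas1 was 1.50 and 1.41 at 0 h, 1.36 and 1.45 after 3 h, and 1.36 and 1.32 after 6 h.

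The remaining regulators were Hif1an and Vhl. Hif1an (ENSMUSG00000036450, chromosome 19, 44562850 to 44576274), which encodes FIH, measured 77.2 and 77.4 CPM at 0 h, 76.6 and 79.8 after 3 h, and 72.9 and 64.3 after 6 h. The 6 h libraries were the lowest but lay well apart from each other. In edgeR the log2 fold change was 0.02 ± 0.05 after 3 h (adjusted p = 0.946). Hif1an was lower at 6 h than at 0 h (-0.17 ± 0.05, adjusted p = 0.0296) and than at 3 h (-0.19 ± 0.05, adjusted p = 0.0189). The 6 h call was made in 6 of 15 alternative fits and in 1 of the 6 that left out a library. Without replicate 2 of 6 h the log2 fold change was -0.08 (adjusted p = 0.364). Against 3 h the call was made in 10 of the 15 and in 3 of those 6.

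Vhl (ENSMUSG00000033933, chromosome 6, 113623959 to 113631633), the substrate receptor of the ligase, measured 31.3 and 33.4 CPM at 0 h, 30.6 and 32.9 after 3 h, and 31.5 and 32.3 after 6 h. All times overlapped. EdgeR put its log2 fold change at -0.03 ± 0.06 for 3 h (adjusted p = 0.915). For 6 h it was -0.02 ± 0.06, with a 95% interval of -0.15 to 0.11 (adjusted p = 0.844).

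Ankrd37 (ENSMUSG00000050914, chromosome 8, 45996902 to 46005707), an ankyrin repeat gene and known HIF target, was the least abundant member, with 101 to 274 counts per library. It measured 5.24 and 5.42 CPM at 0 h, 6.15 and 4.95 after 3 h, and 11.5 and 14.7 after 6 h. The 0 h and 3 h libraries overlapped and the 6 h libraries lay above them all. The fitted log2 fold change was 0.06 ± 0.16 at 3 h, 1.30 ± 0.14 at 6 h (2.47-fold) and 1.25 ± 0.14 for 6 h against 3 h. At 3 h the fitted log2 fold change of Egln3 was 0.46 ± 0.07, and its difference from that of Ankrd37 was not tested. Exons of Ankrd37 overlap opposite-strand genes, Lrp2bp over 22.7% and Ufsp2 over 3.7% of their length, and the strand setting of the counting is not given in the sources used here. Lrp2bp had 2 to 6 counts per library. Ufsp2 ran from 25.7 to 27.4 CPM, with a log2 fold change of -0.05 at 6 h.

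Of the 7 members taken for their role, none was called at 3 h, where 0.14% of all genes tested were called (0.0508% higher and 0.0889% lower). Their log2 fold changes then ran from -0.04 to 0.11. At 6 h 1 of the 7 was higher (Egln1), 2 were lower (Egln2 and Hif1an) and 4 were not called, against 22.3% of all genes called, 10% higher and 12.3% lower. Between 3 h and 6 h the same 2 were lower and none higher, against 21.7% called, 9.89% higher and 11.8% lower. The called log2 fold changes lay between -0.22 and 0.18. The comparisons share libraries, so they are not independent of each other.

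**Figure D4:**
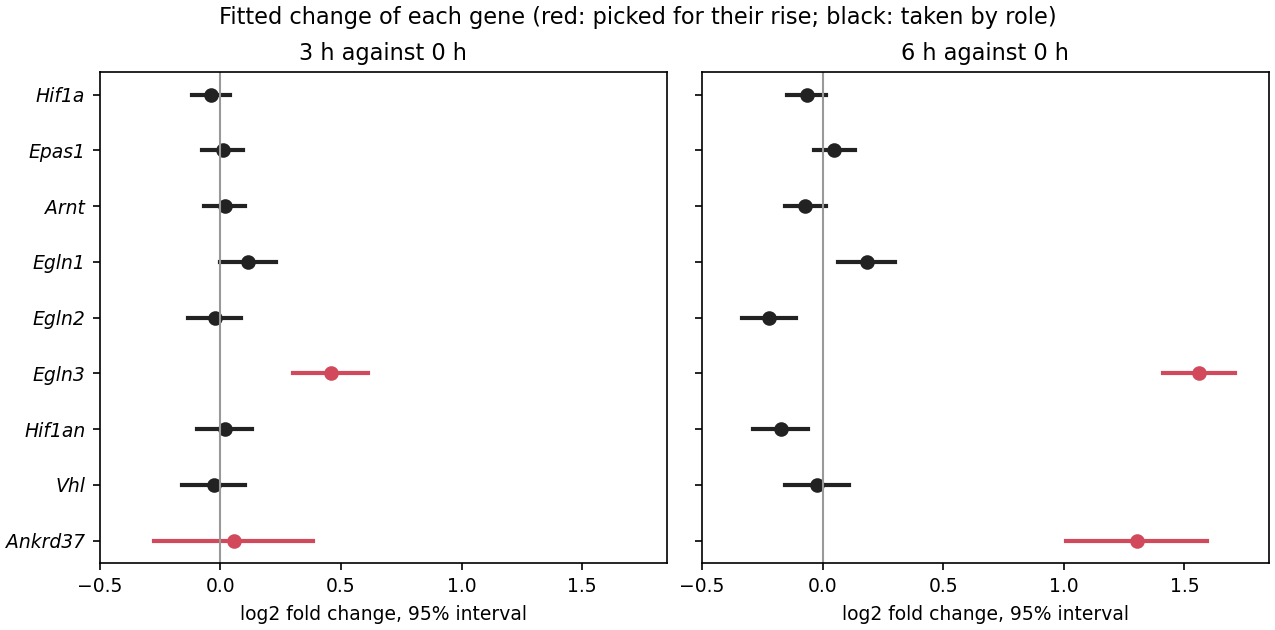
Fitted log2 fold change of each gene with its 95% interval (x axis) at 3 h (left) and 6 h (right) against 0 h. Egln3 and Ankrd37, picked for their rise, are in red, and the 7 genes taken for their role are in black and lie between -0.22 and 0.18 at 6 h. The red intervals describe the fit and are no test.

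Of the other parts of the pathway, the VHL ligase and its regulators had 12 genes. None was called at 3 h. At 6 h 2 were higher (16.7%) and 3 lower (25%), beside 10% and 12.3% of all genes. The median of the 12 log2 fold changes was -0.06, and that of all genes 0.0019. Wsb1, a ubiquitin ligase receptor that targets VHL, fell from 191 and 205 CPM to 140 and 143 (-0.48 ± 0.04, edgeR adjusted p = 3.77e-07). The RING subunit Rbx1 fell by 0.23 and the elongin subunit Elob by 0.13. Usp33, a deubiquitinase that binds VHL, rose by 0.20 and the scaffold Cul2 by 0.11.

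Other subunits of the HIF and ARNT family and their p160 coactivators numbered 14, of which 13 were tested. None was called at 3 h, and at 6 h 2 were higher and 1 lower (median 0.09). These 23.1% were close to the 22.3% of all genes called. These 3 were the p160 coactivators. Ncoa2 rose from 51.6 and 54.9 CPM at 0 h to 72.1 and 71.8 at 6 h (0.43 ± 0.05, edgeR adjusted p = 1.48e-05), Ncoa1 rose by 0.19 and Ncoa3 fell by 0.10.

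Coactivators, stabilisers and inhibitors of HIF were 23 genes, of which none was called at 3 h and 10 at 6 h, 2 higher and 8 lower (median -0.04). That is 8.7% higher and 34.8% lower, beside 10% and 12.3% of all genes. Ajuba, a scaffold that brings VHL and prolyl hydroxylases together, fell from 169 and 167 CPM at 0 h to 112 and 110 at 6 h (-0.60 ± 0.04, edgeR adjusted p = 2.74e-08). The deacetylase gene Sirt1 fell by 0.29, the SUMO protease gene Senp1 by 0.28, the acetyltransferase coactivator Ep300 by 0.22, Mdm2 by 0.16 and Rack1 by 0.12. Higher were the class IIa deacetylase Hdac7 (0.50 ± 0.07) and Cited2 (0.37 ± 0.05), which competes with HIF for the coactivators and is itself a HIF target.

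Regulators of the prolyl hydroxylases and of their 2-oxoglutarate and succinate supply were 19 genes. None was called at 3 h, and at 6 h 1 was higher and 4 lower (median -0.01). That is 5.3% higher and 21.1% lower, beside 10% and 12.3% of all genes. In both directions together it is 26.3%, beside 22.3% of all genes. Siah1b, a ubiquitin ligase of the family that degrades EGLN2 and EGLN3, fell from 30.2 and 32.5 CPM to 22.3 and 21.7 (-0.51 ± 0.07, edgeR adjusted p = 4.81e-05). Pdlim1 fell by 0.20, the isocitrate dehydrogenase Idh1 by 0.18 and the ligase scaffold Cul3 by 0.16. Spop, a substrate adaptor of CUL3 ligases, rose by 0.18.

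HIF target genes outside the 9 members were a list of 71, of which 70 were tested. At 3 h 1 was called (1.43%, beside 0.14% of all genes), the MYC antagonist Mxi1. It rose from 25.0 and 26.1 to 31.0 and 32.9 CPM (0.32 ± 0.06, edgeR adjusted p = 0.0464). With no filter on low counts this call was lost, as were all calls at 3 h. At 6 h 15 were higher and 9 lower, which is 21.4% and 12.9% of the list beside 10% and 12.3% of all genes. The median log2 fold change of the list was 0.04. The number higher was 23 with no scaling factors and 23 with the feeder covariate, and 11 with DESeq2. With no scaling factors more of all genes were higher too, and with DESeq2 fewer of all genes were called. The share over all genes with the feeder covariate is not given here. These counts are therefore no measure of the targets alone.

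Slc2a1, the glucose transporter GLUT1, rose from 255 and 267 CPM at 0 h to 409 and 460 at 6 h (0.73 ± 0.05, edgeR adjusted p = 2.24e-08). The lactate exporter gene Slc16a3 rose by 0.59, Zfp395 by 0.68, Narf by 0.62, Mxi1 by 0.48 and the histone demethylase gene Kdm4b by 0.45. Other targets fell. The histone demethylase gene Kdm3a went from 292 and 301 CPM to 234 and 238 (-0.33 ± 0.03, edgeR adjusted p = 3.88e-06). The EGFR inhibitor gene Errfi1 fell by 0.47, the haem oxygenase gene Hmox1 by 0.40, the metallothionein gene Mt1 by 0.24, the circadian repressor gene Bhlhe40 by 0.24 and the phosphatase gene Dusp1 by 0.22. Genes of glucose uptake and glycolysis went both ways: the transporter gene Slc2a3 was also called lower (-0.13) and Tpi1 higher (0.20). The other 46 tested targets were not called, among them the glycolysis genes Ldha (0.0090) and Pgk1 (0.0058). For 6 h against 3 h, 17 were higher (24.3%) and 10 lower (14.3%), beside 9.89% and 11.8% of all genes. Lox, 1 of the 71, is also a feeder marker.

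**Figure D5:**
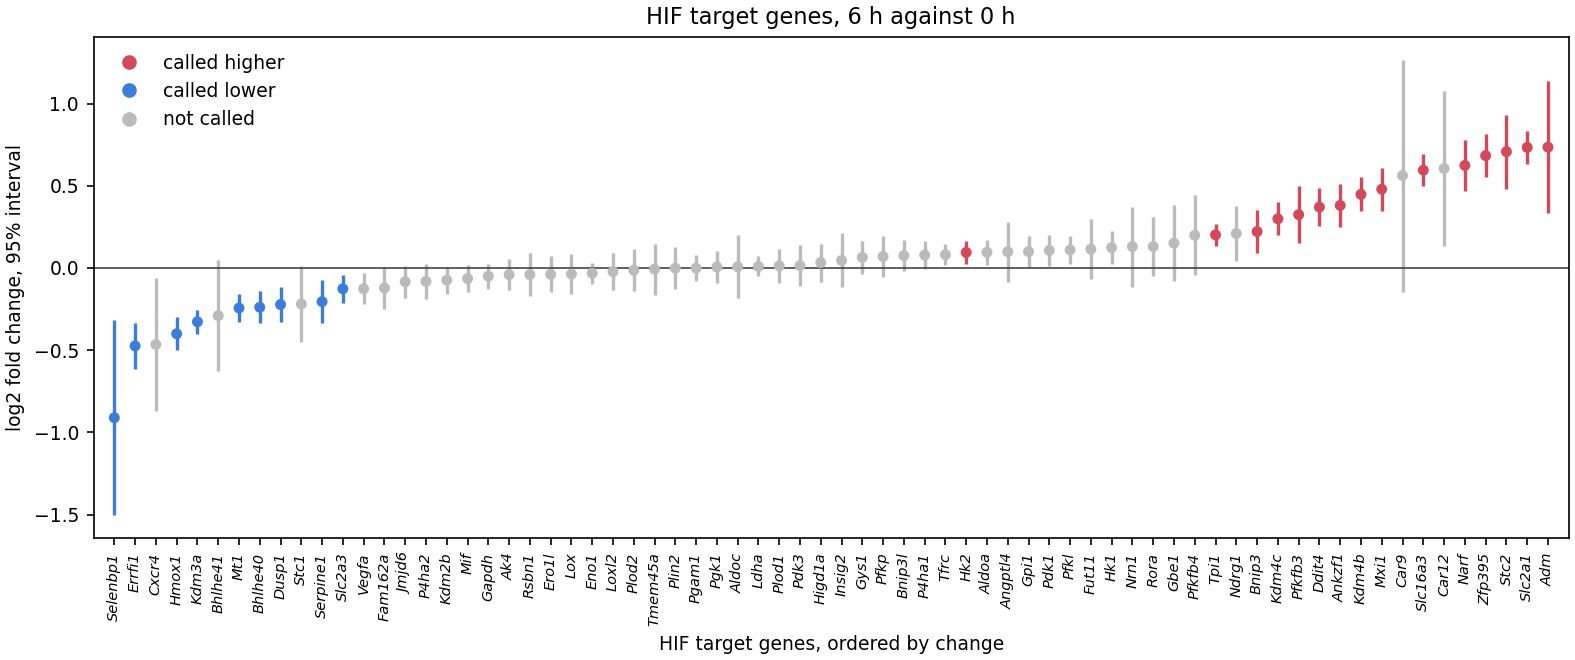
Log2 fold change with 95% interval at 6 h against 0 h (y axis) of the HIF target genes outside the 9 members, ordered by value (x axis). Red marks the 15 called higher, blue the 9 called lower and grey those not called. Most values lie near 0. Called genes reach both ends, but some lie near 0 (such as Hk2, 0.09). Some genes not called lie far from 0 (such as Car12, 0.60).

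The genes whose profile over the 6 libraries lay nearest to Egln3 were Kif26a (distance 0.43), Ankrd37 (0.46), Prdm14 (0.47), Chac1 (0.48) and Platr11 (0.50). The distance is Euclidean, between log2 CPM centred on the mean of each gene, among 11659 candidate genes. For Ankrd37 they were Etfbkmt (0.30), Aire (0.31), Prdm14 (0.42), Chac1 (0.44) and Grm4 (0.44), and Egln3 was the seventh. Some had few counts per library, with 23 to 86 for Kif26a, 33 to 113 for Platr11, 33 to 75 for Etfbkmt and 33 to 69 for Grm4. Prdm14 had 429 to 941 and Aire 305 to 668. Count noise adds to the distances of the weakly counted genes, so the order is loose. Egln3 and Ankrd37 were both chosen for their rise in these same libraries, so their nearness follows in part from that choice. Prdm14 and Chac1 were near both. Prdm14, a pluripotency factor, measured 22.2 and 23.5 CPM at 0 h, 29.9 and 24.5 after 3 h, and 51.8 and 50.5 after 6 h.

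Because DDX6 acts on mRNA, features of the 3′ UTRs were also counted. AGCACTT, the site matching the seed shared by miR-290 and miR-302 family members of ES cells, occurred 3 times in the 3′ UTR of Hif1an (5116 bases), once in those of Epas1 and Vhl, and in none of the other 6 members. Among tested genes with an annotated 3′ UTR, 18.4% held at least 1 site and 3.5% at least 2. The 3′ UTR of Hif1an is long against a median of 1373 bases. Egln3 held 0 sites in 1643 bases and Ankrd37 0 in 659. The pentamer ATTTA, the core of AU-rich elements, occurred 4 times in Egln3 (2.43 per kb), 1 time in Ankrd37 (1.52 per kb) and 8 times in Hif1a (4.38 per kb), with a median of 1.23 per kb over tested genes.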

How the data were processed

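The deposited data are 1 table of unnormalised read counts by Ensembl gene, with a column for each of the 6 libraries. Per the submitters' processing notes, fastp 0.22.0, HISAT2 2.2.1, featureCounts 2.0.3 and build GRCm38 (mm10) were used. The counting annotation, its strand option and the handling of multi-mapped reads were not given in the sources used here. Symbols and exon lengths were taken from GENCODE M21 on the same build, which matched 55227 of 55487 IDs.

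From these counts, R 4.3.3 with edgeR 4.0.16 kept genes by filterByExpr (minimum count 10, 99.9% of counts), scaled libraries with TMM, and ran quasi-likelihood tests on the 6 libraries jointly (3 time means, 3 residual degrees of freedom). Tests were two-sided and p-values were Benjamini-Hochberg adjusted over all 15748 genes, and a gene was called under 0.05. Standard errors (SE) and 95% intervals come from that fit. A count of 3, the floor used, stood for 0.139 to 0.181 CPM. No 2 replicates agreed within sampling noise (their chi-square divided by its degrees of freedom was 1.97 to 6.46). The alternatives were RLE factors, no factors, no filter, DESeq2 1.42.0, limma 3.58.1 voom, a replicate block, a feeder covariate, 4 libraries, each library left out and, chosen after seeing the data, the legacy edgeR test. The script was tested on simulated data.

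The members and the gene lists were chosen with earlier results of these data known. All members are named, and of each list the called genes, up to 6 with the smallest adjusted p in each direction. A few further HIF targets are named as examples, chosen after the values were seen. Like genes are the 5 nearest whose average log2 CPM was 1 or more, predicted genes left out. Lrp2bp, Ufsp2 and Gm15283 are named because their exons overlap a member. Promoters were read from a RefSeq table.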

Additional observations from a re-analysis of the deposited data

How the results depend on the processing

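Each time had 2 libraries, and the calls for Egln1, Egln2 and Hif1an depended on single libraries and on the tool. No value of the 7 members taken for their role that was called changed sign under any alternative run. Of 315 values for these members under the alternatives, 289 kept their side of the threshold and 26 lost their call. Some values that were not called changed sign, such as Vhl at 6 h (-0.06 to 0.03) and Hif1an at 3 h (-0.01 to 0.14). Causes were not tested, except that fits without a library hold fewer samples and the fit with no filter tests more genes.

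For 6 h against 0 h, Egln1 was 0.18 with no filter (adjusted p = 0.149) and 0.18 with DESeq2, and 0.10 to 0.27 with a library left out. Egln2 was -0.22 with DESeq2 and -0.27 to -0.17 with a library left out. Hif1an was not called with no scaling factors (-0.14), no filter (-0.18), DESeq2 (-0.17) or only the 4 libraries compared (-0.17), and ran from -0.26 to -0.082 with a library left out. For 6 h against 3 h, Egln2 was not called with no filter (-0.21) or DESeq2 (-0.20) and ran from -0.25 to -0.14 with a library left out. Hif1an was not called with no filter (-0.20) or DESeq2 (-0.19) and ran from -0.28 to -0.099 with a library left out. Both were not called without either 3 h library or without replicate 2 of 6 h. The Egln3 value at 6 h ran from 1.43 to 1.68 and that of Ankrd37 from 1.11 to 1.47 with a library left out, the lowest without replicate 2 of 6 h. The HIF targets higher at 6 h were 23 with no scaling factors and 23 with the feeder covariate, against 15. With no scaling factors, more of all genes were higher as well.

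At 3 h, 22 genes were called. The count was 0 with no filter (1839 at an unadjusted p under 0.05), 12 with DESeq2, 46 with the feeder covariate, 74 with only the 4 libraries compared and 4 (without replicate 1 of 3 h) to 249 (without replicate 2 of 0 h) with a library left out, with 12 when replicate 1 of 0 h was dropped, 7 when replicate 2 of 3 h was, and 89 and 88 for the 6 h libraries. At 6 h, 3515 genes were called, 1575 higher and 1940 lower. The count was 2029 with no filter and 1697 with DESeq2, and with no scaling factors the split was 2128 higher and 1457 lower. For 6 h against 3 h, 3414 were called, against 1725 with no filter, 1438 with DESeq2, 2157 with the feeder covariate and 1514 to 3706 with a library left out (1514 and 1712 without replicates 2 and 1 of 3 h, 2157 without replicate 1 of 6 h). Same-numbered libraries correlated in their deviations at only 0.04, 0.04 and -0.02. These values cannot decide whether replicate numbers pair the samples, since count noise adds to each deviation. With the replicate block, 242 genes were called at 3 h and 4227 at 6 h, and the block changed no call of the 7 members.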

Other observations

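Replicate 2 of 6 h lay farther from the 0 h mean than replicate 1 for each of the 5 members that differed at 6 h (Egln1, Egln2, Egln3, Hif1an and Ankrd37). Over all 3515 genes called at 6 h this was so for 1733 (49.3%). It was not particular to the members. Of the 15 HIF targets called higher at 6 h, all but Mxi1 were higher in replicate 2 than in replicate 1, such as Slc2a1 (409 and 460 CPM in replicates 1 and 2). Targets called lower went both ways, with replicate 2 farther for Hmox1 (142 and 130 CPM) and nearer for Slc2a3 (1075 and 1192 CPM). The pattern was noticed after the values were seen and was not tested.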
